A study of Mus musculus with 18 samples.

Results

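Unsorted LCP cultures were compared between day 4 (D4) and day 2 (D2) of differentiation, the middle step of a course sampled at D0, D2, D4 and D10. The libraries are the 2 labelled LCP at D2 and the 2 labelled LCP at D4, without a sort, 4 of the 18 RNA sequencing libraries of the series. The source is given as primary cochlear organoids of the mouse. LCP is read as Lgr5-positive cochlear progenitors, although the labels do not spell it out. They give no strain, genotype or culture medium for these cultures, and say of every sample that its material came from the ears of 1 pup, which may not describe organoid cultures. A treatment protocol attached to every sample describes tamoxifen that reached Sox2-CreER pups with a floxed exon of β-catenin, and their littermate controls, through the mother, and no sample title matches it. D2 and D4 libraries with the same replicate number share their RNA extraction date and their sequencing date in the labels. They are therefore called pairs. In the fit the pairing was a replicate term common to all 9 groups of the series, and "without the pairing" means without that term. The labels do not say whether the replicates were separate cultures, so the p-values measure only a spread between libraries. That spread was estimated over all 18 libraries of the series, not over these 4 alone. Abundance was deposited as TPM (transcript abundance scaled by gene length and by the total of the library), which keeps no read depth. A difference is given as a log2 difference of TPM + 1, D4 minus D2, with its standard error (SE). The 4 libraries had between 14540 and 14954 genes at 1 TPM or more.

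Hair cells are the mechanosensory cells of the cochlea, and the supporting cells around them share their progenitors. During development the progenitors leave the cell cycle, and the Atoh1, Pou4f3 and Gfi1 transcription factors then drive the hair cell program. Later steps include the actin-based hair bundle with its mechanotransduction channel, potassium channels, and the ribbon synapse that releases transmitter onto the auditory nerve. Cyclin B and its kinase CDK1 drive entry into mitosis, and their transcripts are low in cells that no longer divide.

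Between D2 and D4, transcripts of mitosis fell together, from cyclin B1 and CDK1 to the kinetochore and spindle genes. In the same 2 days some late hair cell transcripts rose from low levels, led by the potassium channel Kcna10, the synaptic calcium sensor Otof and the acetylcholine receptor subunit Chrna10. The imprinted growth factor Igf2 rose at D4 and was below its D2 level at D10. Of 15417 genes tested, 152 passed an adjusted p of 0.05 (0.986%), 40 higher at D4 (0.259%) and 112 lower (0.726%). All 152 differed in the same direction in both pairs, with no overlap between the libraries of D2 and D4. Over all genes tested, both D4 libraries lay above both D2 libraries for 1606 genes (10.4%) and below them for 3041 (19.7%). Of the 152 called genes, 12 were small RNA genes, 5 higher and 7 lower. The 5 higher ones were listed at 0 in both D2 libraries and at no more than 6.30 TPM at D4. They were therefore tested only through D4, and the depth behind their values is not known.

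The calls rested on a spread estimated over all 18 libraries. With the 4 libraries alone, or with the 8 unsorted culture libraries alone, limma called 0 genes, with 2023 and 1826 at an unadjusted p under 0.05. Without replicate 2 of D2 or without replicate 2 of D4 it also called 0 genes, with 974 and 858 at an unadjusted p under 0.05. Without replicate 1 of D2 it called 65, of which 5 were higher, and without replicate 1 of D4 it called 249, of which 139 were higher. With no change at all, a share of about 0.05 of genes reaches an unadjusted p under 0.05, so the counts at that p are not counts of changed genes. Without the pairing, 126 genes passed, 23 higher and 103 lower. The median log2 difference of all genes was -0.09. Scaling each library to the same median moved it to 0.01 and the split to 61 higher and 81 lower, and quantile normalization gave 79 higher and 118 lower. Each of the 152 genes kept its direction in every setting in which it was tested.

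**Figure D1:**
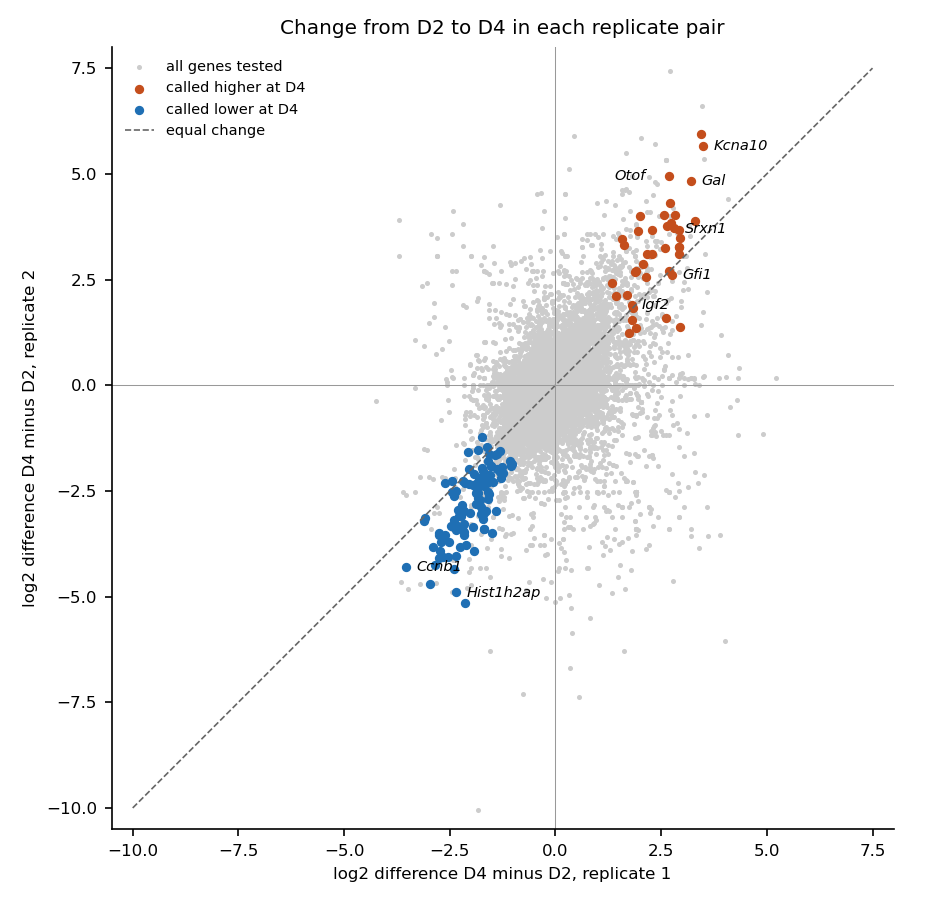
Log2 difference of TPM + 1 between D4 and D2 in the replicate 2 pair (vertical axis) against the replicate 1 pair (horizontal axis), 1 point per gene, with the 40 genes called higher in orange, the 112 called lower in blue, the other tested genes in grey and equal change as a dashed line. Called genes lie on the same side of 0 in both pairs, and 105 of the 112 lower genes and 33 of the 40 higher genes changed more in the replicate 2 pair. The share of all genes tested that did so was not counted.

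The strongest decline among the 152 genes was that of Ccnb1 (cyclin B1, ENSMUSG00000041431, mm10 chr13:100778650-100786570, minus strand), the regulatory subunit of the kinase that starts mitosis. Ccnb1 was at 36.4 and 54.1 TPM in replicates 1 and 2 at D2 and at 2.22 and 1.81 TPM at D4. The levels at D4 were below both D2 libraries by a wide margin and close to each other, and the log2 difference was -3.91 (SE 0.40, adjusted p = 0.00322). Ccnb2, the second B-type cyclin, went from 20.6 and 36.4 to 2.02 and 0.965 TPM (-3.55, SE 0.46, adjusted p = 0.00552). Their partner Cdk1 was the most abundant of the called mitotic genes, at 97.0 and 163 TPM at D2 and 14.7 and 12.2 TPM at D4 (-3.14, adjusted p = 0.0187). At D10 Cdk1 was at 2.04 and 1.31 TPM. Ccna2, the cyclin of S phase and G2, fell from 19.3 and 37.6 to 2.06 and 1.56 TPM (-3.32, adjusted p = 0.00322).

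Genes that end or order mitosis followed. Ube2c, the ubiquitin-conjugating enzyme that works with the anaphase-promoting complex, fell from 33.8 and 74.3 to 3.42 and 1.87 TPM (-3.84, SE 0.49, adjusted p = 0.00552). The mitotic kinase Plk1 fell from 13.8 and 26.6 to 1.55 and 0.646 TPM (-3.30), and the kinase Aurkb of the chromosomal passenger complex from 22.6 and 40.2 to 2.48 and 1.41 TPM (-3.43). In both genes the replicate 2 library was the higher one at D2 and the lower one at D4. Birc5 (survivin), which belongs to the same complex as Aurkb, had a log2 difference of -3.38, and the spindle checkpoint kinase Bub1b one of -3.37. Tpx2, a spindle assembly factor, and Top2a, the topoisomerase that untangles sister chromatids, had log2 differences of -3.21 and -3.20. Pbk, a mitotic kinase, had one of -3.36.

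Of the 40 genes on the G2 and mitosis list, all were tested, 33 fell (82.5%, beside 0.726% of all genes), 0 rose and 7 did not pass. Their median log2 difference was -2.49, beside -0.09 for all genes. Both D4 libraries were below both D2 libraries for 39 of the 40, beside 19.7% of all genes. The exception was Cdc25b, a phosphatase that activates CDK1, at 10.13 and 22.7 TPM at D2 and 14.2 and 59.7 TPM at D4 (0.90, adjusted p = 0.559). The proliferation marker Mki67 fell from 3.17 and 4.65 to 0.306 and 0.152 TPM (-1.98, adjusted p = 0.0243). Foxm1, a transcription factor of the G2 and mitosis program, fell from 5.40 and 6.67 to 1.10 and 0.542 TPM (-1.96, adjusted p = 0.0335). Prc1, which bundles microtubules in the spindle midzone, did not pass: it was at 109 and 76.8 TPM at D2 and at 67.4 and 4.202 TPM at D4, so the D4 libraries differed far more from each other than for the genes above (-2.30, adjusted p = 0.321). Summed over the list, TPM was 871 and 1226 at D2, 212 and 150 at D4, and 84.6 and 87.4 at D10. In bulk RNA, fewer dividing cells and less of these transcripts per cell cannot be told apart. Leaving out each of the 4 libraries in turn, the list's median stayed between -2.68 and -2.28, while its number of called genes was 22 without replicate 1 of D2, 32 without replicate 1 of D4, and 0 without either library of replicate 2.

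Promoters of mitotic genes are known for CCAAT boxes, bound by the factor NF-Y, and for the cell cycle genes homology region (CHR, letters TTTGAA), bound by complexes that repress these genes outside G2 and mitosis. The stretches below show where these letters lie in the called mitotic genes, with the hair cell channel gene Kcna10, which rose, for comparison. They are the 120 bases just before the gene start in RefSeq (build GRCm38.p6), read 5′ to 3′ on the strand of the gene, with CCAAT or TTTGAA on either strand in capitals.
Ccnb1: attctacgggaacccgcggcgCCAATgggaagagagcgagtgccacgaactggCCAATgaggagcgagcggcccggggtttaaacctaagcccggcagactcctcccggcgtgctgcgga
Ccnb2: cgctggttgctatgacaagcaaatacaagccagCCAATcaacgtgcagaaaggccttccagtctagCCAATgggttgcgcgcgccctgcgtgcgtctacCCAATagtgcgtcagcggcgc
Cdk1: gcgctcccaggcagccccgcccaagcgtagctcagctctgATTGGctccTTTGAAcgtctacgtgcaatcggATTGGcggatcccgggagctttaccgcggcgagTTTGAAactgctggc
Ube2c: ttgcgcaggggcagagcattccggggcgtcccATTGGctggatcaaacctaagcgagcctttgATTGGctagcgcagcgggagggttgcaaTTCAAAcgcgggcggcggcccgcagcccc
Top2a: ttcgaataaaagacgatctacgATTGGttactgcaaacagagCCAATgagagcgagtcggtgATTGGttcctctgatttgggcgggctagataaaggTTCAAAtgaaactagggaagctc
Kcna10: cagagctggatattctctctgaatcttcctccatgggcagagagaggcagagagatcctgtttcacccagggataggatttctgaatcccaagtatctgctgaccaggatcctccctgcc

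These stretches are chr13:100786487-100786606 on the minus strand for Ccnb1, chr9:70421555-70421674 minus for Ccnb2, chr10:69352913-69353032 minus for Cdk1, chr2:164769809-164769928 plus for Ube2c, chr11:99024190-99024309 minus for Top2a and chr3:107183023-107183142 plus for Kcna10. The RefSeq start can differ from that of the GENCODE gene bounds. By those bounds, the stretches of Ccnb1 and Kcna10 lie mostly inside the gene, and that of Ube2c partly. Ccnb1 holds 2 CCAAT boxes and no TTTGAA, Ccnb2 3 CCAAT boxes, Cdk1 2 of each, Ube2c 2 CCAAT boxes and 1 TTTGAA, and Top2a 3 CCAAT boxes and 1 TTTGAA. Ccnb2 has no TTTGAA in this stretch but 2 in the longer window of 300 bases counted below. The Kcna10 stretch holds neither.

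The same letters were counted in RefSeq windows of 300 bases, from 250 before to 50 after the start, taking the window listed first for each gene and both strands. A base at the end of one motif can also belong to the other. A window was listed for 82 of the 112 genes that fell, and CCAAT was in 61 of these (74.4%), beside 39.4% of the 9994 tested genes with a window and 37.9% of all 27025 windows. Of the genes that fell, 40 held 2 or more CCAAT boxes (48.8%, beside 15.4% of tested genes and 12.2% of all windows). TTTGAA was in 45 of the 82 (54.9%, beside 11.6% of tested genes and 18.1% of all windows), and 39 held CCAAT and TTTGAA (47.6%, beside 4.99% and 7.12%). On the G2 and mitosis list 24 of 33 windows held TTTGAA (72.7%), while on the S phase list 5 of 35 did (14.3%) and CCAAT was in 22 of 35 (62.9%). Of the 24 genes with a window among those that rose, 6 held CCAAT, 0 held more than 1 and 4 held TTTGAA. The hexamer CAGCTG, a form of the E-box bound by basic helix-loop-helix factors such as ATOH1, was in 5 of these 24 (20.8%, beside 14.5% of tested genes and 16.1% of all windows), and the form CAGATG also in 5 (20.8%, beside 11.1% and 17.2%). A match of letters is a description of the window and not a site of binding.

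**Figure D2:**
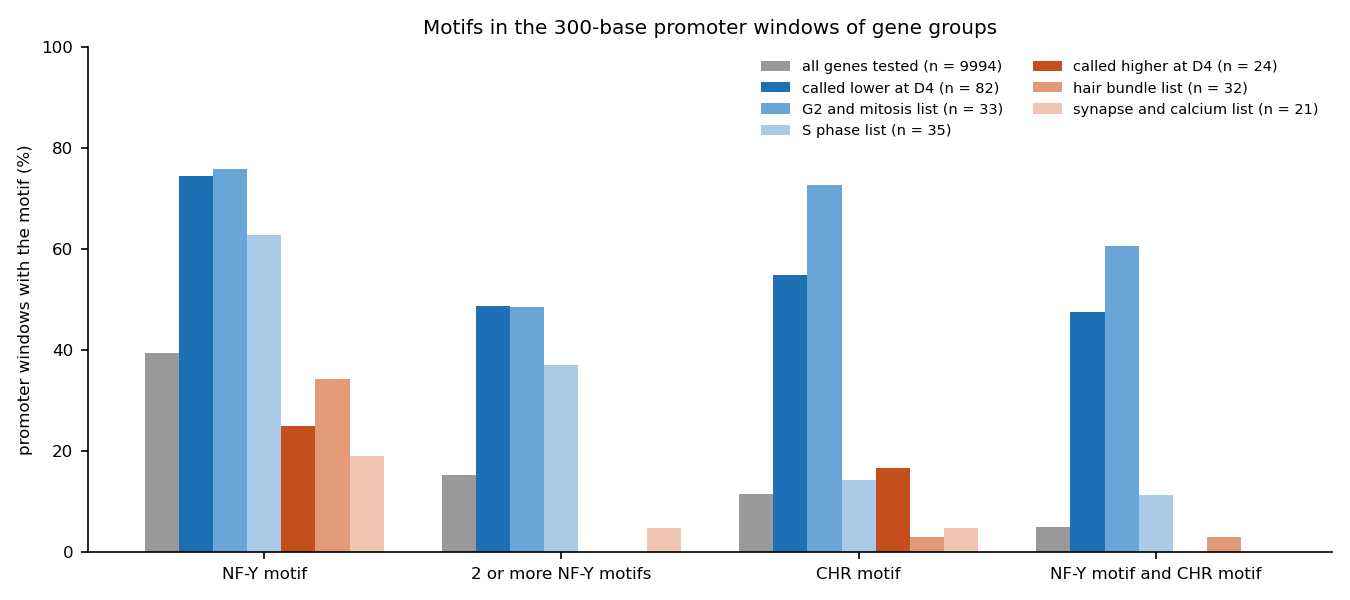
Percent of RefSeq promoter windows that hold the letters CCAAT (labelled NF-Y motif), 2 or more of them, TTTGAA (CHR motif) or both motifs, for tested genes, genes called lower or higher at D4 and 4 gene lists, with the number of windows in the legend. The genes called lower and the G2 and mitosis list stand above tested genes for each, at 47.6% and 60.6% against 4.99% for both motifs, while the S phase list does so mainly for the CCAAT letters.

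Of 42 genes on the S phase list, all tested, 7 fell (Rrm2, Uhrf1, Tk1, Mcm5, Mcm10, Lig1 and Rrm1), 0 rose and 35 did not pass. The 7 were 16.7% of the list, beside 0.726% of all genes called lower. The median was -1.30, and 38 of the 42 had both D4 libraries below both D2 libraries, beside 19.7% of all genes. Orc1, of the origin recognition complex, had the lowest difference of the list but did not pass, at 5.19 and 19.9 then 0.509 and 0.210 TPM (-3.07, SE 0.64, adjusted p = 0.0544). Rrm2, the S-phase subunit of ribonucleotide reductase, fell from 11.6 and 26.8 to 1.72 and 1.69 TPM (-2.79, SE 0.34, adjusted p = 0.00478). Uhrf1, which brings DNA methylation maintenance to newly replicated DNA, fell from 25.4 and 33.2 to 7.03 and 2.80 TPM (-2.44, adjusted p = 0.00857). Tk1 (thymidine kinase) had a log2 difference of -2.36 and Mcm5, a subunit of the replicative helicase, one of -2.19. The other helicase subunits Mcm2, Mcm3, Mcm4, Mcm6 and Mcm7 did not pass, with log2 differences between -2.04 and -1.04. Pcna, the replication clamp, was at 57.7 and 65.0 TPM at D2 and still at 30.8 and 26.2 TPM at D4 (-1.08, adjusted p = 0.0917).

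Replication-dependent histone transcripts mostly lack a poly(A) tail, and 28 of the 36 on the list were not tested. Of the 8 tested, Hist1h2ap fell (12.5%, beside 0.726% of all genes), from 381 and 251 to 73.8 and 7.41 TPM (-3.63, SE 0.73, adjusted p = 0.0458), and 7 did not pass. It has near-identical copies among the histone H2A genes, so its value is uncertain. Without the pairing its adjusted p was 0.0726.

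None of the 19 tested genes among CDK inhibitors, D cyclins and pocket proteins passed, beside 0.986% of all genes, and the median was -0.07. Both D4 libraries lay above both D2 libraries for 5 of the 19 and below them for 7, beside 10.4% and 19.7% of all genes. Cdkn1c (p57, an imprinted CDK inhibitor, mm10 chr7:143458339-143461050) was the most abundant of the 19 at D4. It was at 287 and 437 TPM at D2 and 1725 and 1128 TPM at D4. Both D4 libraries were above both D2 libraries, and the log2 difference of 1.97 (SE 0.50) had an adjusted p of 0.109. At D0 it was at 38.3 and 48.8 TPM, and at D10 at 289 and 722 TPM, so its highest level in both replicates was at D4. The CDK inhibitor Cdkn2d was at 12.7 and 28.8 TPM at D2 and at 34.5 and 134 TPM at D4 (1.78, adjusted p = 0.129). The inhibitors Cdkn1a, at 356 and 257 TPM at D2 and 342 and 167 TPM at D4, and Cdkn1b, at 9.17 and 4.75 then 10.8 and 4.33 TPM, had log2 differences of -0.34 and 0.05. Ccnd1 (cyclin D1) was at 77.8 and 229 TPM at D2 and 64.2 and 31.7 TPM at D4 (-1.54, adjusted p = 0.461).

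**Figure D3:**
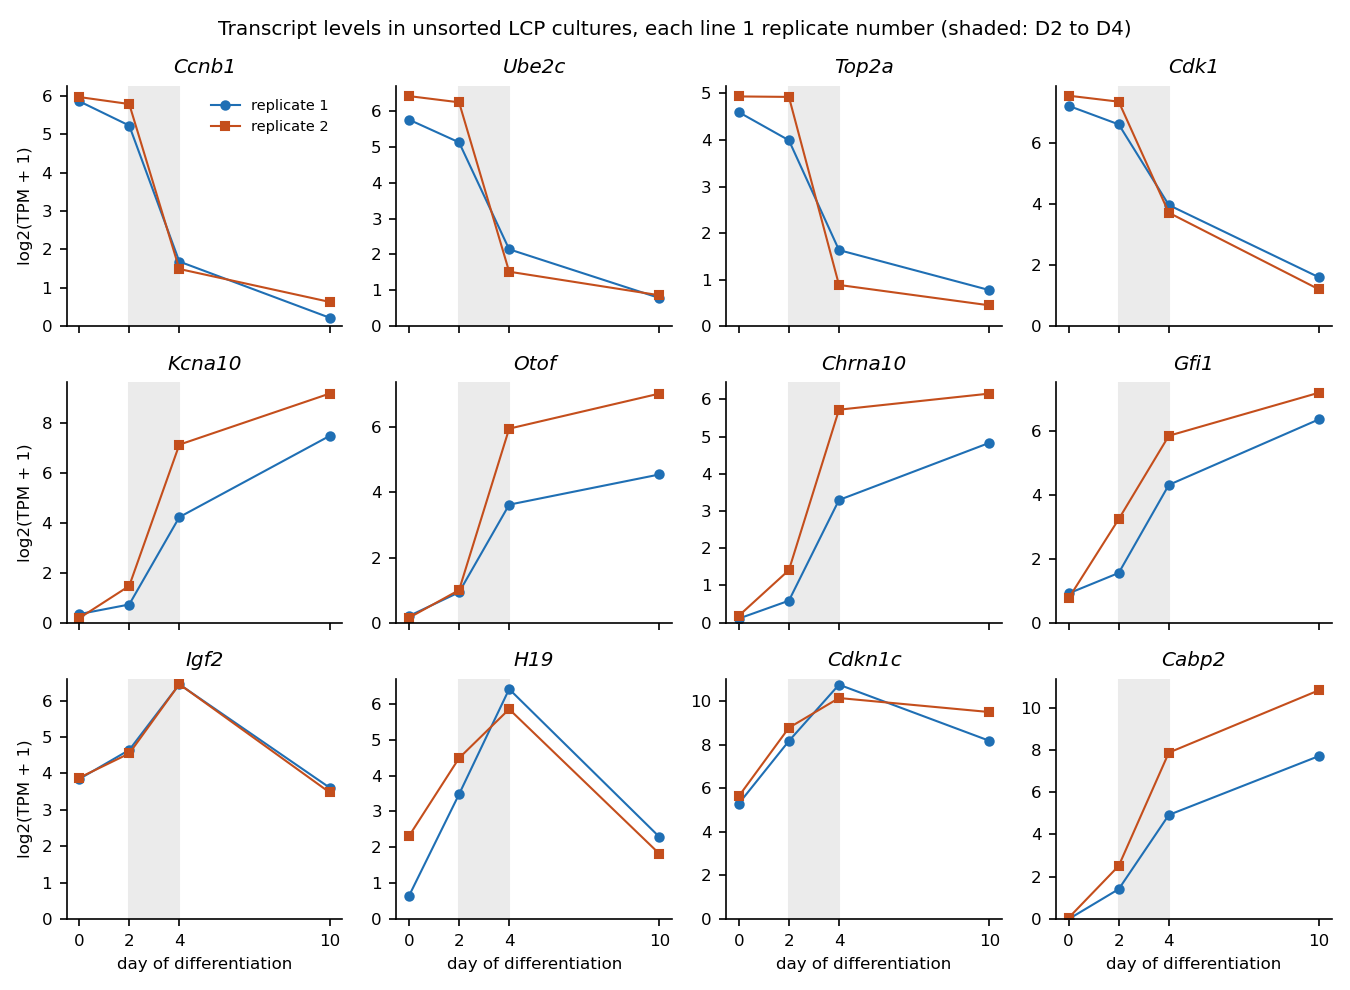
Level as log2(TPM + 1) against day of differentiation for 12 genes in unsorted LCP cultures, with 1 line per replicate number and the step from D2 to D4 shaded. The mitotic genes in the top row drop within the shaded step in both replicates, the hair cell genes in the middle row and Cabp2 climb from near 0, and Igf2, H19 and Cdkn1c are highest at D4.

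Among genes of the hair cell synapse, channels and calcium handling, 4 rose and 0 fell. Kcna10 (ENSMUSG00000042861, mm10 chr3:107183056-107195721), a voltage-gated potassium channel subunit of hair cells, was at 0.657 and 1.77 TPM at D2 and at 17.7 and 138 TPM at D4. Both D4 libraries were far above D2, replicate 2 more so, and the log2 difference was 4.57 (SE 0.69, adjusted p = 0.0103). Otof (otoferlin), the calcium sensor for transmitter release at the inner hair cell synapse, was at 0.910 and 1.00 TPM at D2 and at 11.3 and 60.9 TPM at D4 (3.82, SE 0.68, adjusted p = 0.0259). Its D2 libraries were nearly equal, and the gap between replicates opened at D4. Chrna10, a subunit of the acetylcholine receptor that receives efferent input, rose from 0.507 and 1.66 to 8.82 and 51.7 TPM (3.51, SE 0.59, adjusted p = 0.0188). Pcp4, a small calmodulin-binding protein, rose from 10.8 and 51.2 to 69.7 and 493 TPM (2.91, SE 0.55, adjusted p = 0.0340), and its adjusted p was 0.185 without the pairing.

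Of the 26 genes on this list 19 were tested, and 15 of these did not pass. The 4 that rose were 21.05% of the 19, beside 0.259% of all genes. The median was 1.32, and 15 of the 19 had both D4 libraries above both D2 libraries, beside 10.4% of all genes. Leaving out replicate 1 of D4, 7 of the 19 passed, and leaving out any of the other 3 libraries 0 did. Cabp2, a calcium-binding protein of the hair cell synapse, was at 1.67 and 4.73 TPM at D2 and 29.4 and 233 TPM at D4. Its log2 difference of 4.43 (SE 0.97) had an adjusted p of 0.0683, and without replicate 1 of D4 one of 0.0310. Chrna9, the partner of Chrna10 in the same receptor, was at 2.28 and 8.20 then 17.2 and 84.3 TPM (2.84, adjusted p = 0.0679). The ribbon protein gene Ctbp2, which is widely expressed, was at 52.7 and 48.6 then 58.9 and 55.0 TPM (0.17). Markers of more mature hair cells were not tested because they were under 1 TPM in at least 3 of the 4 libraries. Slc26a5 (prestin, the outer hair cell motor) was at 0.0758 and 0.0362 TPM at D4, Ocm (oncomodulin) at 0.476 and 0.540 TPM, and Slc17a8, the vesicular glutamate transporter of inner hair cells, at 0.226 and 1.86 TPM. At D10 Slc17a8 was at 2.79 and 8.20 TPM, while Slc26a5 was listed at 0 and at 0.0404 TPM.

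Of the 40 hair bundle and mechanotransduction genes 37 were tested, 2 rose (5.4%, beside 0.259% of all genes), 0 fell and 35 did not pass, with a median of 1.30. Both D4 libraries were above both D2 libraries for 23 of the 37, beside 10.4% of all genes. Grxcr2, a protein of the stereocilia base, rose from 0.826 and 2.72 to 7.88 and 30.7 TPM (2.69, SE 0.54, adjusted p = 0.0423). Loxhd1, a stereocilia protein that supports mechanotransduction, rose from 0.336 and 0.449 to 3.11 and 13.4 TPM (2.46, SE 0.47, adjusted p = 0.0340). Without the pairing the adjusted p was 0.0816 for Grxcr2 and 0.0698 for Loxhd1, and 0 of the 37 passed. Leaving out replicate 1 of D4, 11 of the 37 passed, and without any of the other 3 libraries 0 did. The calcium-binding protein gene Cib3 had the highest log2 difference on the list, 5.04, at 0.340 and 0.484 then 13.9 and 143 TPM, with an adjusted p of 0.0780. The transduction channel subunit Tmc1 was at 0.507 and 0.671 then 2.55 and 10.4 TPM (2.00, adjusted p = 0.281). The motor Myo7a was at 1.14 and 5.33 then 7.77 and 25.3 TPM (2.04, adjusted p = 0.123), and Myo15 at 0.369 and 0.655 then 3.00 and 10.6 TPM (2.18, adjusted p = 0.0796). Loxhd1, Cib3, Tmc1 and Myo15 were under 1 TPM in both D2 libraries. They were tested only because both D4 libraries reached 1 TPM, so a rise was built into their selection. The counts and the median of the list include them. Genes with other known roles in epithelia, such as Triobp, Espn, Pls1 and Rdx, were already above 30 TPM at D2 and had log2 differences between 0.07 and 0.97.

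Among hair cell transcription factors Gfi1 rose. Of the 16 on the list 13 were tested, 1 rose (7.69%, beside 0.259% of all genes), 0 fell and 12 did not pass, with a median of 0.48. Both D4 libraries lay above both D2 libraries for 4 of the 13 and below them for 2, beside 10.4% and 19.7% of all genes. Gfi1, a repressor needed for hair cell survival, rose from 1.94 and 8.43 to 18.8 and 56.3 TPM (2.68, SE 0.51, adjusted p = 0.0340), by a similar amount in both pairs (2.75 and 2.60). Its adjusted p was 0.0744 without the pairing. Atoh1, which starts the hair cell program, was at 4.86 and 34.6 TPM at D2 and at 45.8 and 42.7 TPM at D4 (1.65, adjusted p = 0.427). The replicates were thus nearly equal at D4 and differed at D2, and the pair differences were 3.00 and 0.30. Pou4f3, a later factor for hair cell maturation, was at 1.63 and 14.5 then 12.5 and 34.8 TPM (1.78, adjusted p = 0.207), so its libraries overlapped. Lhx3 overlapped as well, at 3.28 and 29.0 then 28.1 and 84.6 TPM. Eya1, expressed broadly in the otic epithelium, was at 153 and 114 then 105 and 100.4 TPM (-0.36, adjusted p = 0.853).

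**Figure D4:**
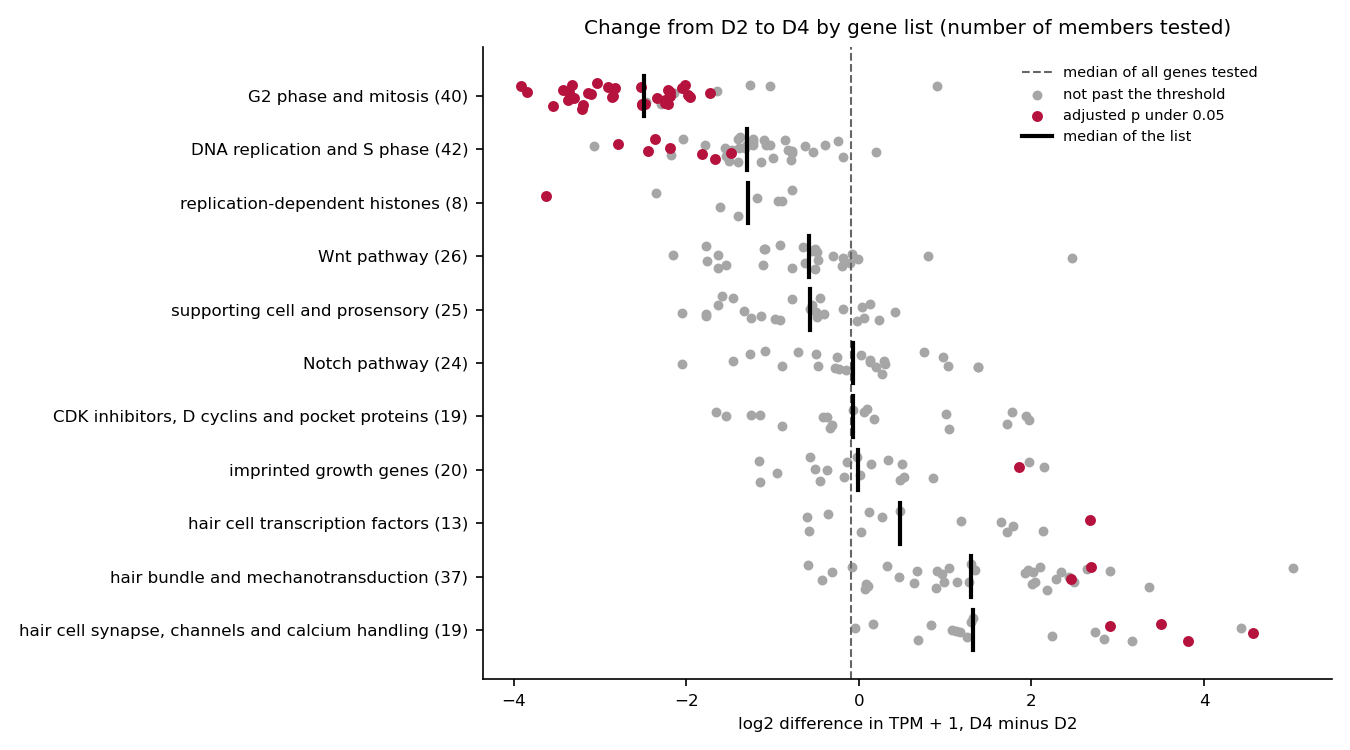
Log2 difference of TPM + 1, D4 minus D2, for each tested member of 11 gene lists, with genes past the threshold in red, the list median as a black bar, the median of all genes as a dashed line and the number tested in brackets. The G2 and mitosis list lies furthest to the left with 33 of 40 past the threshold, and the hair bundle and synapse lists lie to the right with 2 of 37 and 4 of 19.

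Of the 40 genes that rose, 31 were higher in replicate 2 at D2 and 36 at D4. Summed over the synapse and calcium list, TPM was 409 in replicate 1 and 1315 in replicate 2 at D2, and 825 and 4522 at D4. The G2 and mitosis sum was 1226 TPM in replicate 2 and 871 TPM in replicate 1 at D2. Of the 112 genes that fell, 85 were higher in replicate 2 at D2 and 95 were lower in replicate 2 at D4. The order of the replicates was not counted over all genes tested. These counts therefore do not show a trait of the called genes. The replicate numbers share dates, so culture and date cannot be told apart.

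The highest called difference was that of Gm13304, a gene with no standard name and so outside the rule for named genes, given after its value was seen. It went from 0.619 and 2.84 to 16.7 and 235 TPM (4.70, SE 0.85, adjusted p = 0.0269). Mindy4b-ps, left out as a pseudogene by its name, went from 1.52 and 4.49 to 23.8 and 79.8 TPM (3.59, adjusted p = 0.00961). Other genes that rose had varied roles. Gal (galanin, a neuropeptide) rose from 0.756 and 3.13 to 15.2 and 117 TPM (4.02, SE 0.79, adjusted p = 0.0408), and was at 11.8 and 28.4 TPM at D10. Defb25, a beta-defensin, rose from 4.68 and 12.5 to 39.1 and 218 TPM (3.42, adjusted p = 0.0416). Pjvk (pejvakin), a hearing gene linked to peroxisomes in hair cells, rose from 0.684 and 1.17 to 9.56 and 28.4 TPM (3.21, SE 0.39, adjusted p = 0.00471), with the smallest SE among the 12 named genes that rose most. Srxn1 (sulfiredoxin), an antioxidant enzyme, rose from 13.6 and 9.25 to 101 and 133 TPM (3.26, SE 0.61, adjusted p = 0.0315). It had its higher D2 value in replicate 1, and at D10 the replicates parted to 241 and 33.5 TPM. Mogat1, an acyltransferase of glyceride synthesis, rose from 1.31 and 5.77 to 16.9 and 75.0 TPM (3.22, adjusted p = 0.00961), and Ppp1r27, a phosphatase 1 regulatory subunit, from 0.515 and 2.96 to 9.04 and 55.9 TPM (3.29). Dnajb13, a radial spoke protein of motile cilia, rose from 0.632 and 2.93 to 11.4 and 48.9 TPM (3.30), Meig1, known from spermatogenesis, from 0.470 and 2.27 to 7.72 and 52.0 TPM (3.29), and Pifo, a cilia gene, from 0.588 and 4.43 to 11.1 and 51.5 TPM (3.10). Without the pairing the adjusted p was 0.0863 for Defb25, 0.0712 for Meig1 and for Ppp1r27, 0.0921 for Srxn1, 0.0547 for Mogat1 and 0.0644 for Pifo. In native cells of the series sorted by Atoh1 at postnatal day 2, Defb25 was at 951 and 1113 TPM and Ppp1r27 at 250 and 351 TPM. Gal was at 0.181 TPM there and listed at 0. Defb25 and Ppp1r27 were not limited to that sort. In native cells sorted by Lgr5, Defb25 was at 352 and 1123 TPM and Ppp1r27 at 89.1 and 213 TPM. In those sorted by Sox2, Defb25 was at 503 and 790 TPM and Ppp1r27 at 131 and 164 TPM.

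Of the imprinted genes on chromosome 7, Igf2 rose, and Igf2, H19 and Cdkn1c had their highest level of the course at D4. Igf2 (insulin-like growth factor 2, ENSMUSG00000048583, mm10 chr7:142650766-142666816) was at 24.0 and 22.4 TPM at D2 and at 86.1 and 86.5 TPM at D4. The replicates were almost equal at both days, and the log2 difference was 1.85 (SE 0.33, adjusted p = 0.0259), with 1.80 and 1.90 in the pairs. At D10 it was at 11.2 and 10.14 TPM, below the 13.4 and 13.7 TPM of D0. Its neighbour H19 (mm10 chr7:142575529-142578143), a noncoding RNA expressed from the opposite parental allele, was at 10.15 and 21.4 TPM at D2, 84.1 and 56.7 TPM at D4, and 3.88 and 2.53 TPM at D10. Both D4 libraries of H19 were the highest of the course in their replicate, but its difference from D2 (2.15, SE 0.88) had an adjusted p of 0.460. Of the 30 genes on the imprinted list 20 were tested, 1 rose (5%, beside 0.259% of all genes), 0 fell, and the median was -0.01. Grb10, a growth inhibitor, was at 181 and 95.2 then 117 and 29.1 TPM (-1.15, adjusted p = 0.558), and Mest at 199 and 426 then 207 and 325 TPM (-0.17).

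No supporting cell or prosensory gene passed among 25 tested, beside 0.986% of all genes. The median was -0.57, and 14 of 25 were below D2 in both D4 libraries, beside 19.7% of all genes. On the list, 6 genes had an unadjusted p under 0.05, all lower. Lgr5, the progenitor gene after which the cultures are taken to be named, was at 58.9 and 35.4 TPM at D2 and 22.8 and 8.57 TPM at D4 (-1.63, adjusted p = 0.708). Its relative Lgr6 was at 48.4 and 45.0 then 12.7 and 13.2 TPM (-1.77, adjusted p = 0.0780). Sox2 was at 10.5 and 21.3 then 15.3 and 15.5 TPM (0.04). Gjb6, a gap junction gene of supporting cells, stayed among the more abundant ones at 335 and 332 then 256 and 231 TPM (-0.46).

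Wnt and Notch pathway genes did not pass either. Over all genes tested 0.986% were called, so 0 calls in lists of this size is near that share and does not show stable levels. Of 26 Wnt genes tested 0 were called, 24 had a difference below 0, beside 9276 of all 15417 genes tested, and the median was -0.58. After median scaling 22 were below 0. Both D4 libraries lay below both D2 libraries for 13 of the 26 and above them for 2, beside 19.7% and 10.4% of all genes. The Wnt target Axin2 was at 4.97 and 5.88 then 3.33 and 2.25 TPM (-0.77, adjusted p = 0.658), and Myc, the widest exception, at 30.5 and 5.53 then 96.9 and 63.2 TPM (2.47, adjusted p = 0.430). Of 24 Notch genes tested 0 were called, with a median of -0.07 and differences on both sides. Jag1, the ligand of the prosensory domain, was at 27.4 and 30.8 then 12.8 and 2.82 TPM (-2.05, adjusted p = 0.427). The ligand Dll1 of nascent hair cells was at 3.37 and 21.0 then 17.5 and 20.8 TPM (1.04, adjusted p = 0.651). The effectors had low levels at both days against D0: Hes5 was at 153 and 21.8 TPM at D0, 0.0150 and 0.246 TPM at D2 and 0.214 and 0.573 TPM at D4. Hes1 was at 1982 and 689 TPM at D0, 40.1 and 18.9 TPM at D2 and 80.0 and 6.14 TPM at D4, in opposite directions between D2 and D4 in the pairs. Hey1 was at 28.8 and 11.8 then 8.07 and 8.22 TPM (-1.09, adjusted p = 0.748).

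The other lists had 0 called genes, beside 0.986% of all genes tested. The medians were -0.19 for 8 tested RNA-binding and progenitor genes, -0.13 for 28 chromatin genes, -0.16 for 13 genes of BMP signalling and Id factors, -0.18 for 16 FGF genes and -0.02 for 10 retinoic acid genes. They were -0.10 for 25 matrix genes, -0.33 for 20 genes of hypoxia and glycolysis, -0.07 for 25 genes of oxidative phosphorylation, -0.20 for 28 ribosomal protein genes and 0.24 for 20 stress genes. The immediate early gene Fos was at 91.4 and 1258 TPM at D2 and at 145 and 276 TPM at D4, so the D2 libraries were apart (-0.76, adjusted p = 0.978). The collagen gene Col2a1, at 2367 and 272 then 1099 and 150 TPM, was higher in replicate 1 at both days (-0.98, adjusted p = 0.843), and Sparc, a matrix glycoprotein, was at 1214 and 1647 then 2061 and 3733 TPM (0.97, adjusted p = 0.667).

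Per the labels' protocols the epithelium was separated from mesenchyme and neurons, and markers of other cell types were checked. Markers of immune cells, erythroid cells and melanocytes were not tested, as too few libraries reached 1 TPM, and each list summed to at most 1.57 TPM in the 4 libraries. Of 14 mesenchyme markers, 5 were tested and 0 passed, and the list summed to 781 and 1278 TPM at D2 and 545 and 673 TPM at D4. Nearly all of it was Dcn (525 and 494 then 371 and 345 TPM) and Lum (251 and 772 then 172 and 313 TPM), while Col3a1 was at 0.0539 and 0.504 TPM at D2 and 0.0331 and 5.80 TPM at D4, and Twist2 was listed at 0 throughout. Of 12 neuron markers 6 were tested and 0 passed, with sums of 245 and 148 TPM at D2 and 159 and 262 TPM at D4. Of the 6, 4 had a difference above 0 and 2 below. Isl1, also on the supporting cell and prosensory list, made up most of the D2 sums, at 173 and 85.8 then 97.1 and 71.9 TPM (-0.54). The sum is therefore not a level of neurons. The neurofilament genes Nefl (0.384 and 2.47 then 3.71 and 59.2 TPM) and Nefm (0.905 and 7.59 then 8.75 and 71.2 TPM) were above D2 in both D4 libraries, as was the synaptic gene Snap25 (1.25 and 7.49 then 8.87 and 24.3 TPM), while Tubb3, Gap43 and Prph stayed under 1 TPM. In native cells sorted by Atoh1, Nefl was at 69.8 and 152 TPM, and its levels in the Lgr5 and Sox2 sorts are not given here. Of 8 glia markers 4 were tested and 0 passed, Foxd3 was listed at 0 throughout, and Sox10, also expressed in otic epithelium, was at 163 and 104 then 61.9 and 42.0 TPM. Of 7 endothelium markers only Tek was tested, at 3.85 and 1.54 then 1.56 and 0.607 TPM, and of 11 markers of other cochlear epithelium 7 were tested and 0 passed. The part of these cells in the results was not tested. Mitochondrial transcripts made up 5.49% and 8.10% of TPM at D2 and 7.22% and 8.43% at D4, and leaving them out gave 154 called genes.

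The step from D2 to D4 was tested against the preceding step of the same length, from D0 to D2, which shares the D2 libraries. Only 1 of 15417 genes passed by limma (0.00649%), the small nuclear RNA gene Gm23206, and 421 had an unadjusted p under 0.05. Gm23206 passed the filter only through its D2 libraries, so its call is no independent sign of a change. With no change at all, a share of about 0.05 of genes would reach an unadjusted p under 0.05. Ccnb1 was at 57.0 and 61.5 TPM at D0, so its difference was -0.41 over the first step and -3.91 over the second, and the test of that change had an adjusted p of 0.607. Nuf2, a kinetochore gene, was at 12.4 and 14.6 TPM at D0, 9.49 and 18.2 TPM at D2 and 1.20 and 0.362 TPM at D4, with the same adjusted p. Cspg5, a membrane proteoglycan, was at 17.3 and 28.5 TPM at D0, 75.6 and 110 TPM at D2 and 34.3 and 49.4 TPM at D4, and had an adjusted p of 0.135. At D10 Kcna10 was at 177 and 573 TPM and Gfi1 at 80.9 and 145 TPM, while Atoh1 was at 24.3 and 14.2 TPM, below D4 in both replicates.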

How the data were processed

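Each library comes with TPM values for its genes, made by the authors and summing to 1000000. The submitters' processing notes name STAR, Salmon, FastQC, DESeq2 and mm10 without role or version. Annotation and filters are not stated there. Per the labels' protocols, cDNA came from a kit that does not mark strand, so antisense genes cannot be told apart. Depth is unknown, so no counting interval is given. Because TPM has a fixed sum, a rise in abundant genes lowers others.

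Groups came from the sample titles. Values were changed to log2(TPM + 1), which understates the change of low genes. A gene was tested if 2 or more of the 4 D2 and D4 libraries reached 1 TPM. A gene under 1 TPM in both libraries of 1 day was thus tested only if it was higher on the other day. The test was limma 3.58.1 (R 4.3.3), fitted once to all 18 libraries (9 groups of 2) with a replicate block and a mean-variance trend (8 residual and 2.98 prior degrees of freedom). Benjamini-Hochberg adjustment covered all genes tested, and the threshold was 0.05. The code was tested on simulated data. Same-numbered D0, D2 and D4 libraries share dates in the labels, although the extraction date of replicate 1 is later than its sequencing date. Across genes, the differences between replicates correlated at 0.542 (D0 with D2), 0.464 (D0 with D4) and 0.511 (D2 with D4). Log2 levels correlated at 0.943 and 0.901 within the D2 and D4 pairs, and at 0.895 (D2) and 0.889 (D4) between replicates.

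GENCODE M21 gave names for 47310 of 47729 identifiers, and coordinates. The comparison, its members and the 29 gene lists were chosen with earlier results of these data known, and lists are described by counts and medians without a test. Named genes were the 12 highest and 12 lowest called differences with a mean of at least 10 TPM in the higher group, leaving out ribosomal protein genes, pseudogenes and genes without a standard name, then up to 4 called members and the most abundant other member of each list, 12 fixed genes and the 5 lowest adjusted p of the step difference. Not all are printed. Other list members, and those in the closing section, were picked after their values were seen. Alternatives changed the block, libraries, pseudocount, filter, scaling and moderation.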

Additional observations from a re-analysis of the deposited data

Results flagged for a closer look

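Gm23206, a small nuclear RNA gene on chromosome 13, was the 1 gene called for the difference between the steps from D0 to D2 and from D2 to D4. It was at 4.49 and 4.78 TPM in the D2 libraries and listed at 0 in the other 16 libraries. Its change from D2 to D4 minus its change from D0 to D2 was -4.99 on the log2 scale (limma, adjusted p = 6.98e-04). The gene passed the filter only through the D2 libraries, where it was high, and D2 enters both steps. The call is therefore no independent sign of a change. The depth behind these values is unknown.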

How the results depend on the processing

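The number of genes called between D4 and D2 was 126 without the replicate block, 171 with a block by sequencing date, 192 without the trend, 150 with robust moderation, 133 with a pseudocount of 5, 102 with a filter of 5 TPM and 126 with the filter over all libraries. It moved to 77 with a pseudocount of 0.1 and to 91 with no filter, which tested 31395 genes. It was 0 with the 8 unsorted culture libraries only and 0 with the 4 D2 and D4 libraries only. With the 12 LCP libraries only, a setting chosen after seeing the data, it was 68 (9 higher and 59 lower). Leaving out each library in turn gave 0 to 249, and the lone library of that day is then assumed to vary like the other groups. The 37 named genes past the threshold kept their direction in every setting, and 0 of them kept the call in all 4 of those fits. The cause was not tested.

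The number called for the difference between the 2 steps was 1 without the replicate block, 0 with a pseudocount of 0.1, with a filter of 5 TPM, with the 8 unsorted or with the 12 LCP libraries only, 2 without the trend, and 3 with no filter or with the filter over all libraries, and 1 to 2 leaving out a library.

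Direction was not stable for 10 named genes that did not pass. Leaving out a library in turn, log2 differences were -0.25 to 1.91 for S100a1, -0.56 to 1.02 for Epyc, -0.49 to 0.53 for Hes6, -0.50 to 0.15 for Slbp, -0.13 to 0.15 for Hdac3, -1.53 to 0.46 for Id2, -0.19 to 0.21 for Atp5j, -0.296 to 0.056 for Rpl32, -1.26 to 0.77 for Hes1 and -0.75 to 0.82 for Sox2. Small differences cannot be assigned a direction with 2 libraries a day.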

Other observations

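The genes given here were chosen after their values were seen, and no list of their kind was counted. Foxj1, the transcription factor of motile ciliogenesis, was at 1.90 and 3.24 TPM at D2 and 8.42 and 17.5 TPM at D4 (log2 difference 1.91, limma, adjusted p = 0.0263). Dynlrb2, a dynein light chain, was at 2.99 and 9.86 then 18.6 and 138 TPM (2.99), and Cfap44, a cilia and flagella protein, at 0.628 and 0.676 then 3.87 and 17.5 TPM (2.52). Insc, an adaptor of spindle and cell polarity, rose from 2.21 and 8.60 to 23.4 and 91.4 TPM (3.10).

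Timp2, an inhibitor of metalloproteinases, rose from 33.5 and 50.5 to 114 and 120 TPM (1.48, adjusted p = 0.0269), and Dusp14, a phosphatase of MAP kinases, from 12.2 and 16.5 to 45.6 and 49.8 TPM (1.68, adjusted p = 0.00857). In both genes the replicates were close at D4. Rprm (reprimo), known as an inhibitor of G2 progression, rose from 0.934 and 4.19 to 13.9 and 12.5 TPM (2.16, adjusted p = 0.0488) and was at 47.8 and 52.5 TPM at D10. Among the 112 genes that fell, Prom1 (prominin 1), a membrane protein of progenitor cells, went from 43.2 and 30.7 to 17.3 and 7.27 TPM (-1.60, adjusted p = 0.0423), and the fucosyltransferase Fut2 from 15.4 and 19.4 to 4.85 and 3.15 TPM (-1.89, adjusted p = 0.0401).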
